A study of Mus musculus with 9 samples.

Results

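The genes described here are the 77 protein-coding genes of the mouse mitochondrial ribosome that carry an Mrpl or Mrps symbol, taken as every row of the raw count table whose biotype was protein_coding and whose symbol began with Mrpl or Mrps followed by a digit, of 28111 genes in the table. They were measured by RNA sequencing in induced regulatory T (iTreg) cells of the mouse strain C57BL/6J. The Glut1Tg group held 4 libraries from mice with a transgene for Glut1, the glucose transporter that the gene Slc2a1 encodes. The WT group held 5 libraries from control mice without it. The labels also place each library in mouse group 1 (WT replicates 1 and 3, Glut1Tg replicates 2, 3 and 4) or mouse group 2 (WT replicates 2, 4 and 5, Glut1Tg replicate 1), and do not say what the number marks. The labels name neither the promoter of the transgene nor the ages of the mice, and do not say whether each library came from 1 mouse. The p-values below therefore measure only how these libraries vary, and part of that may be technical.

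Mitochondria carry their own ribosome, which translates the few proteins encoded by mitochondrial DNA, all of them core parts of the respiratory chain and ATP synthase. Its RNA comes from the mitochondrial genome, while every one of its proteins is encoded in the nucleus, made on cytosolic ribosomes and imported. In activated T cells the supply of mitochondrial translation products is tied to respiration, on which regulatory T cells are known to draw.

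Of the 77 genes, 50 encode proteins of the large subunit, including Mrps18a and Mrps30, which keep a small-subunit symbol although their proteins sit in the large subunit. A further 26 encode small-subunit proteins. The last, Mrps36, has a ribosomal symbol but encodes a subunit of the 2-oxoglutarate dehydrogenase complex. In the classes used here 45 of the proteins were counted as having a bacterial counterpart and 31 as specific to mitochondria. Mrps28 and Mrps18b were counted among the 31. Mrps18b is however also a homologue of a bacterial protein, and the class of Mrps28 is open to question. The members lie on 17 chromosomes.

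Slc2a1, which checks the genotype labels, had 29.7 to 58.7 CPM (counts scaled to a common library size) in the 5 WT libraries and 260.2, 495.8, 279.0 and 457.2 CPM in Glut1Tg replicates 1 to 4, and the groups did not overlap (exact two-sided permutation test, p = 0.00794, the smallest p that this design allows). Total counts ran from 20881035 to 31196428 per library. The 6 general T cell markers summed to 2311 to 3135 CPM and Foxp3, the defining transcription factor of regulatory T cells, stood at 621 to 1164 CPM in every library, while the 3 natural killer cell markers were low, with Ncr1 and Klra8 at or below 0.157 CPM and Klrb1c at 0 to 1.11 CPM. Glut1Tg replicate 1 and WT replicate 2 stood apart on the first principal component (100.5 and 88.2, against −47.5 to 12.8) and Glut1Tg replicate 3 on the second (78.4, against −35.5 to 30.6). Glut1Tg replicates 2 and 4 had 256 and 340 CPM of Xist, the RNA of the inactive X chromosome, and the other 7 libraries at most 1.32 CPM, so that sex differed within the Glut1Tg group and all 5 WT libraries were of the low-Xist kind.

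All 77 members were expressed well enough to be tested. Their counts made up 0.246% to 0.342% of a library, and the lowest count of any member in any library was 24. On the scale of CPM per kilobase of transcript, which allows genes to be compared, the members' median level was 22.2 and their range 2.58 to 92.6. The highest were Mrpl52, a mitochondria-specific large-subunit protein, at 78.0 ± 3.70 in WT (SD, n = 5) and 111 ± 36.0 in Glut1Tg (SD, n = 4), Mrps21 at 85.8 ± 17.3 and 91.3 ± 22.9, Mrpl30 at 75.4 ± 9.16 and 94.6 ± 22.9, and Mrpl33 at 74.9 ± 7.70 and 83.2 ± 26.6. These 4 did not differ from each other beyond their spread within either genotype. The lowest were Mrpl53, at 2.27 ± 0.513 CPM per kilobase in WT, Mrps25 at 2.62 ± 0.891, Mrpl17 at 2.75 ± 0.772 and Mrpl47 at 3.05 ± 0.763. The order depends on the transcript lengths used, those of GENCODE M21. In that annotation exons of other genes cover 88.0% of the exon bases of Mrpl53 and 69.8% of those of Mrps25. Reads there may not have been counted for these 2 members, so their low levels may not reflect low expression. Before length was taken into account, the pairs with the highest mean CPM in each of the 4 structural classes were Mrpl9 (133.4 CPM, the highest of all members) and Mrpl24 of the large subunit with a bacterial counterpart, Mrpl45 and Mrps30 of the mitochondria-specific large-subunit class, Mrps5 and Mrps16 of the small subunit with a bacterial counterpart, and Mrps23 and Mrps26 of the mitochondria-specific small-subunit class.

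Nuclear genes for mitochondrial proteins are known targets of NRF1, of the ETS-family factor GABP and of YY1. Promoters of 68 of the 77 members were matched in RefSeq (GRCm38.p6, 250 bases before to 50 after the start, 74 promoters in all), and were searched on both strands for the words GCGCA and GCGC with any 1 base between them (NRF1), CCGGAAG (ETS), AAGATGG (YY1), CACGTG (E-box), GGGCGG (GC box) and TATAAA, none of which contains another. The NRF1 word stood in 17.6% of the members' promoters, against 9.81% of 12167 promoters of tested protein-coding genes and 4.60% of all 32851 promoters. For the ETS word the shares were 33.8%, 17.1% and 8.86%, and for the YY1 word 17.6%, 7.07% and 6.34%. The GC box was found in 52.7% of the members' promoters, 61.5% of those of tested coding genes and 35.7% of all. The E-box shares were 9.46%, 9.65% and 7.15%. Counted by gene they were 7.35%, 11.5% and 8.09%, since the E-box of Mrpl2 was counted at several starts. In all, 42 of the 68 matched members held the NRF1, ETS or YY1 word. The share of all genes with any of these words was not computed. A word is a match of letters and not a measured binding site.

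The following 150 bases, each ending at the base before the RefSeq start and free of annotated exons, show such words in 4 members whose RNA levels are described below, with the words in capitals. They are Mrpl45 (chr11:97315566-97315715, GRCm38, plus strand) with a pair of NRF1 words, Mrpl34 (chr8:71464776-71464925, plus strand) with an ETS word, Mrpl52 (chr14:54426759-54426908, plus strand) with a YY1 word and a reversed ETS word, and Mrpl20 (chr4:155802728-155802877, plus strand) with an E-box.
Mrpl45: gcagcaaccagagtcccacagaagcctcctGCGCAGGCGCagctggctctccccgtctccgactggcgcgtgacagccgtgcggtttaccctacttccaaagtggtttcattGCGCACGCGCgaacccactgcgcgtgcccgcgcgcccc
Mrpl34: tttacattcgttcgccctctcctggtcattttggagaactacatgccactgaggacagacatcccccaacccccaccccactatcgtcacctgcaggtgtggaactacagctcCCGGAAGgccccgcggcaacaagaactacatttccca
Mrpl52: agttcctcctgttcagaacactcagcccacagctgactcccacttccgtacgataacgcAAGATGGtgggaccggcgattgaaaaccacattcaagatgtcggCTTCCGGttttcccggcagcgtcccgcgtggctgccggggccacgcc
Mrpl20: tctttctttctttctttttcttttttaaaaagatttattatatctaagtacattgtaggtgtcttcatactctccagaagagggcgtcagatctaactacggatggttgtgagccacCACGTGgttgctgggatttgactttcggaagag

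Many members also shared a start region with another gene. A gene on the opposite strand began within 1000 bases upstream for 18 of the 77 members, 23.4%, and for 1303 of 12397 tested protein-coding genes, 10.5%. The partners of 4 members, chosen after their values were seen, serve as examples. Mrps12 stood 172 bases from Sars2, the mitochondrial seryl-tRNA synthetase, Mrpl49 59 bases from Fau, a cytosolic ribosomal protein, and Mrps27 81 bases from Ptcd2, a mitochondrial RNA-processing protein. Mrpl51 stood 100 bases from Ncapd2, a condensin subunit that acts in mitosis.

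The first comparison asked whether the genes differed between iTreg cells with and without the Glut1 transgene, with mouse group in the model. The fitted log2 fold change was positive in 74 of 77 members (96.1%), against 52.4% of the 14817 genes tested, and its median was 0.32, against 0.02 over all genes. No member passed the threshold, an adjusted p under 0.05 in edgeR's quasi-likelihood test with Benjamini-Hochberg adjustment over all genes. The lowest adjusted p of a member was 0.681, and 0.00675% of all genes passed, which was Slc2a1 alone. At an unadjusted p under 0.05, 19 members (24.7%) were higher in Glut1Tg and 0 lower, against 4.5% and 1.5% of all genes. In 8 members (10.4%) every Glut1Tg library lay above every WT library, as it did in 1.01% of all genes, and in 0 members every Glut1Tg library lay below, as in 0.58% of all genes. With DESeq2 0 members passed as well, and 20 had an unadjusted p under 0.05. The members share libraries and are not independent of each other, so these counts are not 77 separate observations.

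**Figure D1:**
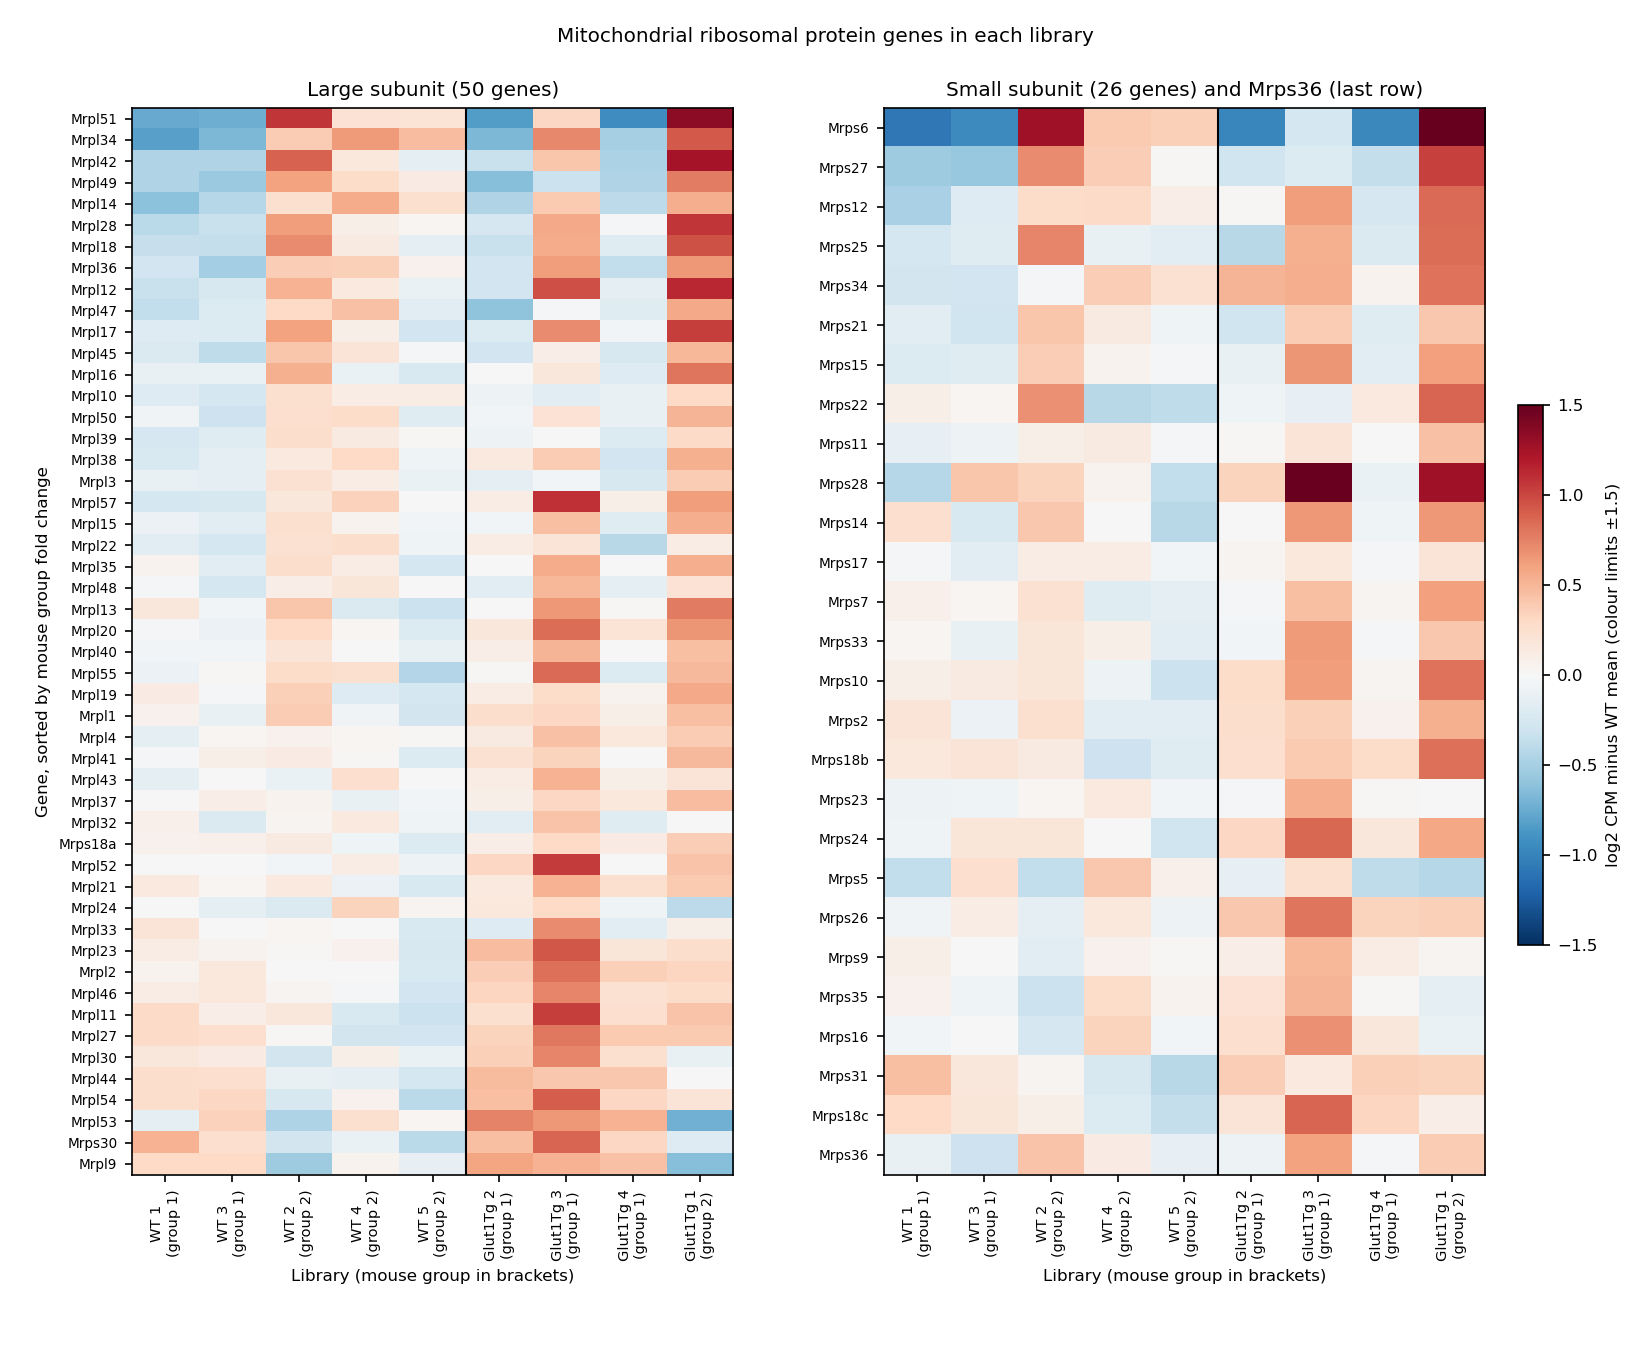
Each cell is 1 gene in 1 library, coloured by log2 CPM minus the gene's WT mean (colour limits ±1.5), with large-subunit genes on the left, small-subunit genes and Mrps36 on the right, libraries sorted by genotype and mouse group, and genes by their mouse group fold change. The columns of Glut1Tg replicates 1 and 3 are red for most genes, while those of Glut1Tg replicates 2 and 4 are mixed.

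The difference was not spread evenly over the Glut1Tg libraries. The mean over the 77 genes of log2 CPM relative to the WT mean was 0.46 in Glut1Tg replicate 1 and 0.49 in replicate 3, and 0.03 in replicate 2 and −0.03 in replicate 4. In WT replicates 1 to 5 it was −0.09, 0.20, −0.10, 0.09 and −0.11. Replicates 1 and 3 of Glut1Tg were thus above every WT library, while replicates 2 and 4 lay within the range of all WT libraries. Within its own mouse group, every Glut1Tg library was above every WT library, by a small margin for replicates 2 and 4, whose group 1 WT libraries were at −0.09 and −0.10. The number of members above their WT mean was 67 and 69 in Glut1Tg replicates 1 and 3, 44 and 39 in replicates 2 and 4, and 19 to 62 in WT. Summed over the 77 genes, the level was 2379 to 2826 CPM in WT and 3341, 2687, 3622 and 2568 CPM in Glut1Tg replicates 1 to 4.

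Both subunits are given side by side, with the difference between them not tested. On the log2 scale relative to WT, the large-subunit genes averaged 0.43 in Glut1Tg replicate 1 and 0.50 in replicate 3, and the small-subunit genes 0.53 and 0.47. In Glut1Tg replicates 2 and 4 the means were 0.02 and −0.03 for the large subunit and 0.04 and −0.02 for the small. The median fitted fold change (log2) was 0.32 over the 50 large-subunit genes, of which 48 were positive, and 0.33 over the 26 small-subunit genes, of which 25 were positive. By structural class the medians were 0.34 for 30 large-subunit genes with a bacterial counterpart, 0.27 for 20 mitochondria-specific large-subunit genes, 0.32 for 15 small-subunit genes with a bacterial counterpart and 0.40 for 11 mitochondria-specific small-subunit genes. The last class includes Mrps28 and Mrps18b, as placed above. Differences between these classes were not tested.

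**Figure D2:**
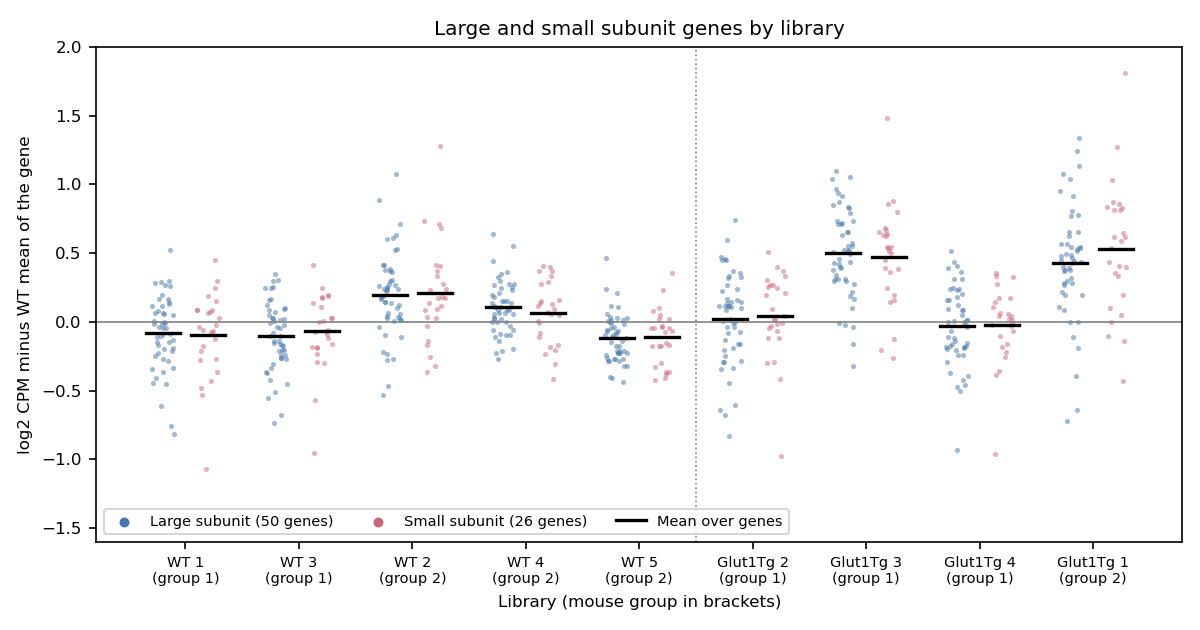
Points are genes, by library (horizontal axis, mouse group in brackets) and subunit (colour), at log2 CPM minus the gene's WT mean, and black bars are means over genes. Means for both subunits lie between 0.43 and 0.53 in Glut1Tg replicates 1 and 3 and between −0.12 and 0.21 in all other libraries.

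Other properties of the libraries moved with this pattern. Glut1Tg replicates 1 and 3, the high pair, were the Glut1Tg libraries with low Xist, as all WT libraries were. The following pairs were left out after the members' levels in them had been seen, so the direction in which each fit moved was set by that choice. Without Glut1Tg replicates 2 and 4, 73 members were positive with a median log2 fold change of 0.46, and 41 had an unadjusted p under 0.05 in the upward direction, against 18.3% of all genes in either direction. None passed the adjusted threshold, and the lowest adjusted p of a member was 0.196 (edgeR). Without Glut1Tg replicates 1 and 3, 61 members were positive, the median was 0.09 and 1 member had an unadjusted p under 0.05, against 1.47% of all genes in either direction. In the marker lists for proliferation and other cell types the high pair differed from each other. The 4 proliferation markers summed to 4013 CPM in Glut1Tg replicate 1, 4070 CPM in WT replicate 2 and 716 to 1797 CPM in the other 7 libraries, replicate 3 of Glut1Tg (1091 CPM) among them. Mast cell and basophil markers, 6 of 6 above their WT mean in Glut1Tg replicate 3, summed to 2316 CPM there. The sums were 91.4 to 588 CPM in the other Glut1Tg libraries and 127 to 776 CPM in WT. The lowest sums, in Glut1Tg replicate 1 (91.4 CPM) and WT replicate 2 (127 CPM), were mostly Kit, at 86.8 and 124 CPM. Cpa3, the highest of the other markers there, had 3.56 and 2.48 CPM in these 2 libraries. Myeloid markers summed to 246 CPM and erythroid and platelet markers to 562 CPM in Glut1Tg replicate 3, against 5.33 to 21.3 CPM and 1.85 to 116 CPM elsewhere. In the same library T cell and regulatory T cell markers were at their lowest, with sums of 2311 and 1622 CPM. On the log2 scale relative to WT they averaged −0.39 and −0.66, with 2 of 6 and 0 of 5 genes above their WT mean. Single T cell markers went both ways in that library. Cd3d and Cd3g had 556 and 490 CPM there, above every WT library. Cd5, a T cell surface protein, had 166 CPM there against 371 to 549 CPM in the others. The part of sex, proliferation and other cell types in the members' levels was not tested, and in bulk RNA a change in the cells present cannot be told apart from a change in RNA per cell.

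Among large-subunit genes, Mrpl28 had 22.3, 45.8, 23.4, 31.4 and 30.2 CPM in WT replicates 1 to 5 and 62.3, 24.9, 43.9 and 29.1 CPM in Glut1Tg replicates 1 to 4. The groups overlapped, and the fitted log2 fold change was 0.63 (SE 0.21, unadjusted p = 0.0151, adjusted p = 0.681 in edgeR), with mouse group taken out. Mrpl20, a core protein that in bacteria acts early in large-subunit assembly and whose upstream sequence is given above, had 33.4 to 47.6 CPM in WT and 61.0, 43.4, 69.0 and 44.6 CPM in Glut1Tg (log2 fold change 0.54, SE 0.18). Mrpl2, whose bacterial counterpart lies at the peptidyl transferase centre, had 27.9 to 36.5 CPM in WT and 40.7, 42.1, 57.9 and 41.9 CPM in Glut1Tg (log2 fold change 0.41, SE 0.14). It was 1 of the 8 members whose groups did not overlap, so that its higher level in Glut1Tg did not rest on the high pair alone. Mrpl12, the counterpart of the bacterial stalk protein that recruits translation factors, had 30.6, 55.7, 32.8, 43.0 and 36.1 CPM in WT and 84.9, 31.7, 75.8 and 34.9 CPM in Glut1Tg (log2 fold change 0.71, SE 0.28). Here the high pair lay above all WT libraries and the other pair within the WT range.

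Among small-subunit genes the smallest p belonged to Mrps34, a mitochondria-specific protein needed for the stability of the small subunit. It had 11.2, 13.3, 11.04, 17.5 and 15.9 CPM in WT and 23.9, 19.3, 19.8 and 14.1 CPM in Glut1Tg, with 3 of 4 Glut1Tg libraries above every WT library (log2 fold change 0.65, SE 0.17, unadjusted p = 0.00335, adjusted p = 0.681 in edgeR). Exons of Mapk8ip3 and Nme3 cover 77.8% of its exon bases, so reads could be split with those genes. Mrps26 did not overlap between genotypes, with 43.7, 41.3, 49.0, 50.8 and 43.2 CPM in WT and 58.0, 60.0, 79.1 and 57.2 CPM in Glut1Tg (log2 fold change 0.45, SE 0.15). Mrps12, which lines the decoding centre, had 12.7 to 21.7 CPM in WT and 32.03, 17.9, 27.2 and 14.8 CPM in Glut1Tg (log2 fold change 0.55, SE 0.20). The largest fitted change of any member was that of Mrps28, chosen here after its value was seen. It had 4.29 to 7.79 CPM in WT and 14.1, 7.36, 16.5 and 5.42 CPM in Glut1Tg (log2 fold change 0.91, SE 0.37). The other members without overlap, also named after their values were seen, were Mrpl4, Mrpl27, Mrpl23, Mrpl46 and Mrpl21 of the large subunit and Mrps18b of the small.

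**Figure D3:**
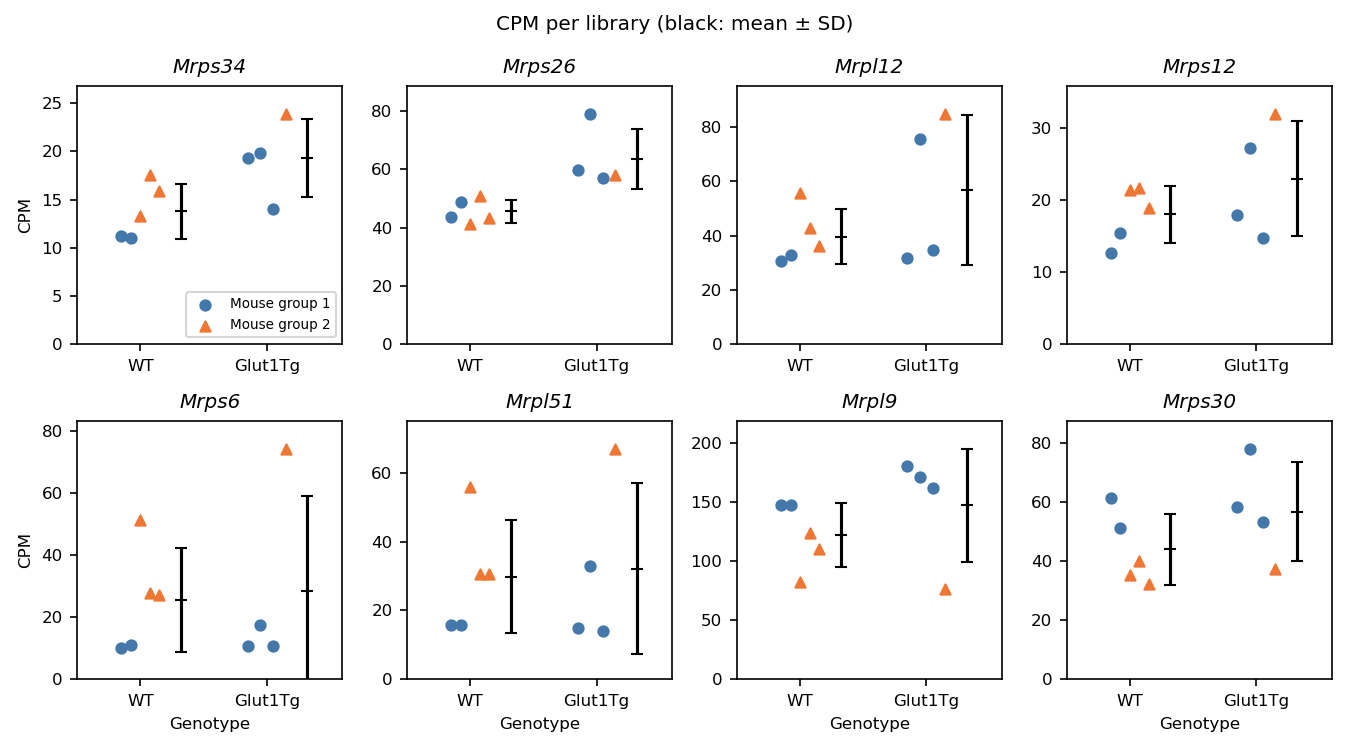
CPM (vertical axis, from 0) of 8 members by genotype, with circles for mouse group 1, triangles for mouse group 2 and black bars for the mean ± SD of each genotype (the lower end of the Glut1Tg bar of Mrps6 lies below 0 and is not drawn). Mrps26 is higher in all 4 Glut1Tg libraries, Mrps34 and Mrps12 overlap, and in the lower row Mrps6, Mrpl9 and Mrps30 separate by mouse group.

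Only 3 members had a negative fitted fold change, and none differed beyond the replicate spread. Mrps5, whose bacterial counterpart lines the messenger RNA entry, had 74.1, 74.3, 113, 127 and 101 CPM in WT and 70.9, 88.1, 113 and 73.1 CPM in Glut1Tg (log2 fold change −0.21, SE 0.24). Mrpl24 and Mrpl9 were at −0.04 (SE 0.19) and −0.03 (SE 0.18), and their sign turned under several other settings. The 3 homologues of bacterial S18 gave side by side log2 fold changes of 0.23 (Mrps18a, SE 0.13, now a large-subunit protein), 0.46 (Mrps18b, SE 0.19) and 0.25 (Mrps18c, SE 0.18). Mrps36, which is no ribosomal protein in function, had 11.2 to 18.7 CPM in WT and 18.1, 13.2, 21.2 and 13.6 CPM in Glut1Tg (log2 fold change 0.34, SE 0.21), with replicates 1 and 3 again the higher pair.

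**Figure D4:**
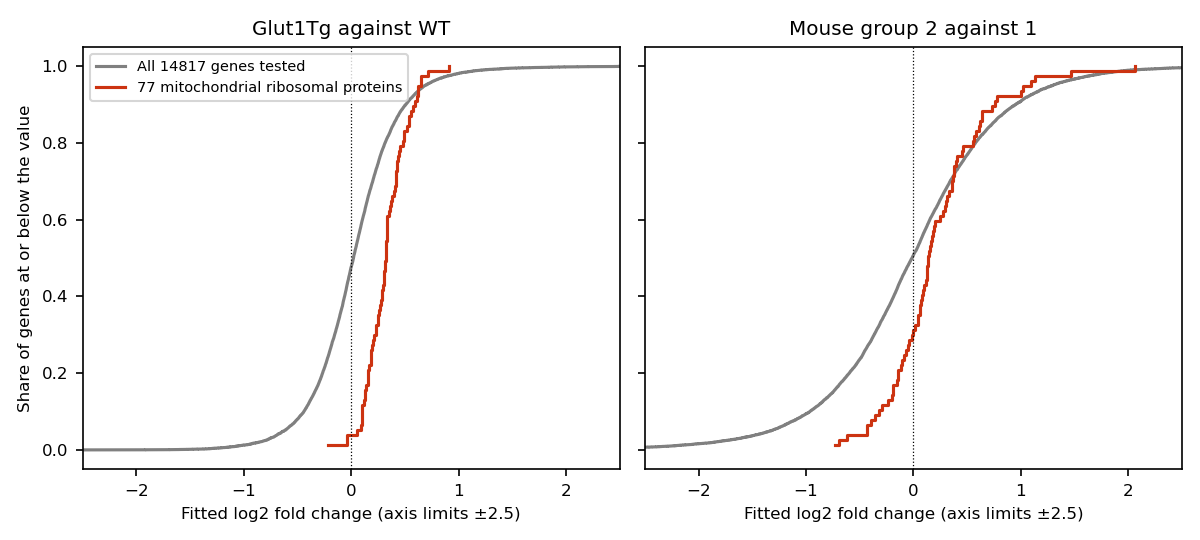
Cumulative share of genes (vertical axis) at or below each fitted log2 fold change (horizontal axis, limits ±2.5), for the 77 members (red) and all 14817 genes tested (grey), for genotype on the left and mouse group on the right. For genotype the members' curve lies to the right of that of all genes over most of its length (medians 0.32 and 0.02), and for mouse group the medians were 0.13 and −0.01.

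The 19 members at an unadjusted p under 0.05, listed here after their values were seen, were Mrpl2, Mrpl4, Mrpl12, Mrpl17, Mrpl20, Mrpl23, Mrpl27, Mrpl28, Mrpl37, Mrpl52 and Mrpl57 of the large subunit and Mrps6, Mrps10, Mrps12, Mrps18b, Mrps24, Mrps26, Mrps28 and Mrps34 of the small. Their log2 fold changes ran from 0.28 (Mrpl37, SE 0.12) to 0.91 (Mrps28). The count depended on single libraries, with the filter on low counts reapplied in each fit, and the share of all genes at that p in either direction, 6% in the fit of all libraries, moved too. The count was 3 without Glut1Tg replicate 1 (1.78% of all genes), 4 without WT replicate 1 (3.01%), 8 without Glut1Tg replicate 3 (3.98%), 9 without WT replicate 5 (3.14%), 12 without WT replicate 4 (4.18%) and 31 without Glut1Tg replicate 4 (8.03%). The count of positive members was less affected, at 71 to 76 over the 9 fits that each left out 1 library, and 73 when libraries were scaled by their totals alone.

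The second comparison was between the mouse groups, across both genotypes. Members were called in both directions, 11 higher and 3 lower in mouse group 2, together 18.2% of the members, against 24.1% of all genes (13.1% higher and 11% lower). The members' share was thus not above that of all genes. A positive fold change was found in 53 of 77 members (68.8%, against 49.2% of all genes) with a median of 0.13. Ranges of the mouse groups did not overlap in 5 members that were higher (6.49%) and 6 that were lower (7.79%) in group 2, against 10.5% and 11.4% of all genes. The members thus went separate ways by mouse group, while their genotype differences nearly all had one sign.

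Mrps6, of the small-subunit platform, showed the largest difference. It had 10.02 and 10.8 CPM in WT and 10.7, 17.6 and 10.8 CPM in Glut1Tg within mouse group 1, and 51.3, 27.8 and 27.1 CPM in WT and 74.3 CPM in Glut1Tg within mouse group 2. The groups did not overlap, and the means were 12.0 ± 3.14 CPM (SD, n = 5) and 45.1 ± 22.5 CPM (SD, n = 4), a log2 fold change of 2.06 (SE 0.27, adjusted p = 0.00231, edgeR). Its span from the lowest to the highest library, 7.42-fold, was the widest of the family, whose median span was 2.01-fold (2.53-fold over all genes). Mrps6 (chr16:92058270-92112227, GRCm38, plus strand) shares 19.9% of its exon bases with Gm49711 and part of them with Slc5a3, an inositol transporter gene nested in it, which itself rose by 1.53 on the log2 scale (SE 0.39, adjusted p = 0.0232, edgeR). Reads from the pair cannot be fully separated.

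Mrpl51, a mitochondria-specific protein of the large subunit, had 15.6, 15.9, 14.8, 32.8 and 13.9 CPM in mouse group 1 and 55.9, 30.7, 30.7 and 67.1 CPM in mouse group 2, overlapping through Glut1Tg replicate 3 (log2 fold change 1.47, SE 0.31, adjusted p = 0.0117, edgeR). Its divergent partner Ncapd2 was higher in mouse group 2 too, by 1.27 (SE 0.34). Mrps27, a pentatricopeptide-repeat protein of the small subunit, had 7.92 to 10.2 CPM in mouse group 1 and 19.4, 15.3, 12.0 and 24.1 CPM in mouse group 2 (log2 fold change 1.097, SE 0.18), whereas its partner Ptcd2 stood at 0.03 (SE 0.14). Mrpl49 had 17.9 to 22.3 CPM and 42.6, 33.8, 30.3 and 47.5 CPM (log2 fold change 1.00, SE 0.16), with Fau at −0.61 (SE 0.26, adjusted p = 0.118). Genes that share a start region therefore did and did not move together. The other 7 genes called higher were Mrpl45, a protein near the exit tunnel that holds the ribosome to the inner membrane (0.55, SE 0.14), Mrpl34, Mrpl42, Mrpl28, Mrpl14, Mrpl10 and Mrpl39, with log2 fold changes of 1.13, 1.02, 0.76, 0.78, 0.39 and 0.37. The upstream sequences of Mrpl45 and Mrpl34 are given above.

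The 3 genes called lower all belong to the large subunit. Mrpl9, whose bacterial counterpart reaches out from the stalk base, had 147, 147, 181, 171 and 162 CPM in mouse group 1 and 82.4, 124, 110 and 76.5 CPM in mouse group 2, without overlap (log2 fold change −0.73, SE 0.18, adjusted p = 0.0219, edgeR). Mrps30 had 51.1 to 78.1 CPM and 32.2 to 40.0 CPM (log2 fold change −0.69, SE 0.16). Mrpl44, a double-stranded RNA-binding protein related to ribonuclease III, had 34.8 to 40.7 CPM and 24.3 to 29.3 CPM (log2 fold change −0.43, SE 0.11). Mrpl54 also did not overlap, with 42.5 to 66.8 CPM and 26.9 to 40.6 CPM, but was not called (log2 fold change −0.43, SE 0.17, adjusted p = 0.0878).

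**Figure D5:**
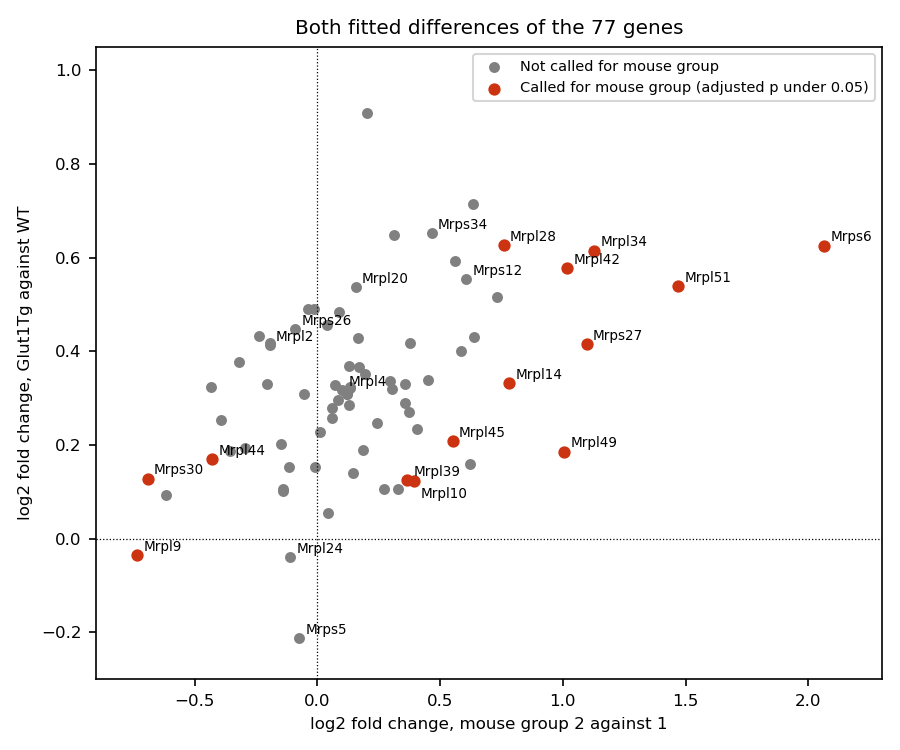
Each point is 1 of the 77 genes, at its fitted log2 fold change for mouse group (horizontal axis) and genotype (vertical axis); red points were called for mouse group and labels mark those, the genes below 0 and several with a small genotype p. Points spread to both sides of 0 along the horizontal axis, from −0.73 to 2.06, and 74 of 77 lie above 0 on the vertical axis.

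The proliferation markers were called higher in group 2 in 4 of 4, and their ranges did not overlap between mouse groups in 2 of 4. In group 2 they summed to 4070, 1043 and 1797 CPM in WT replicates 2, 4 and 5 and 4013 CPM in Glut1Tg replicate 1. The sums in group 1 were 716 to 1181 CPM, a range that held WT replicate 4. The highest levels of Mrps6 and Mrpl51 were those of Glut1Tg replicate 1 and WT replicate 2, the pair with high proliferation markers. Without that pair Mrps6 was still called (log2 fold change 1.41, adjusted p = 0.0388, edgeR), as it was in the WT libraries alone (1.76, adjusted p = 0.0379), while Mrpl51 was not called without the pair (0.98, adjusted p = 0.201). The members called numbered 1 without Glut1Tg replicate 1, the only Glut1Tg library in group 2, 4, 7 and 6 without WT replicates 1, 2 and 3, 9 without Glut1Tg replicate 2 or 4, and 24 without Glut1Tg replicate 3. All 14 kept their sign in each of these fits. What sets the mouse groups apart beyond their number cannot be told from the labels.

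Most members varied less than Mrps6. From the lowest to the highest of the 9 libraries the steadiest member, Mrps17, spanned 1.28-fold, with 39.9 to 48.4 CPM in WT and 51.1, 46.0, 49.7 and 43.6 CPM in Glut1Tg. Only 6 members spanned more than 3-fold, whereas 40.3% of all genes tested did. That share includes genes of lower level, down to a mean of 0.252 CPM against 1.79 CPM for the lowest member. It also counts genes without reads in some library as above 3-fold, so the shares are not like for like. Beside Mrps6 the 6 members were Mrpl51 (4.84-fold), Mrps28 (3.83-fold), Mrpl34 (3.34-fold), Mrpl42 (3.29-fold) and Mrps27 (3.05-fold), all but Mrps28 called for mouse group. Mrpl34 had 8.82, 9.70, 9.70, 25.7 and 10.98 CPM in mouse group 1 and 20.4, 24.3, 21.5 and 29.5 CPM in mouse group 2, and Mrpl42 17.7 to 32.8 CPM and 22.3 to 58.2 CPM. In both, Glut1Tg replicate 3 was the library of mouse group 1 that reached into the range of group 2, as it was in Mrpl51.

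Whether the genotype difference depended on mouse group was tested with an interaction term. No member and 0 of 14817 genes passed in edgeR. At an unadjusted p under 0.05 there were 1 member, Mrps18b (edgeR, adjusted p = 0.741), and 5.3% of all genes, and DESeq2 called 2 genes, 0 of them members. Without WT replicate 2 the interaction was called in 140 genes and without Glut1Tg replicate 3 in 3, none of them members. The term rests on Glut1Tg replicate 1 alone for the transgenic cells of group 2.

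Lists of genes that work with the mitochondrial ribosome were set beside the members. Mitochondrial ribosomal proteins under other symbols had positive genotype fold changes in 6 of 6 genes (median log2 0.27), with Gadd45gip1 at 0.45 (SE 0.22), Ptcd3 at 0.27 (SE 0.14) and Chchd1 at 0.30 (SE 0.17). Protein import and processing genes were positive in 16 of 17 (median 0.29), led by Tomm40, the pore of the outer membrane translocase (0.68, SE 0.22), Timm23 (0.49, SE 0.18) and Timm50 (0.63, SE 0.26). Ribosome assembly and RNA modification genes were positive in 22 of 28 (median 0.13), with C1qbp at 0.93 (SE 0.30), Noa1 at 0.53 (SE 0.17) and Ndufab1 at 0.55 (SE 0.20). Genes of these lists did not pass the adjusted threshold for genotype, and the lowest adjusted p in each was 0.681.

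Translation factors were positive in 8 of 14 (median 0.05), with Tsfm, an elongation factor, at 0.64 (SE 0.25), Pde12 at 0.26 (SE 0.11) and Gfm1 at 0.36 (SE 0.20). For mouse group 6 of these 14 were called, all higher, against 13.1% of all genes, among them Tsfm by 1.496 (SE 0.25, adjusted p = 0.00527, edgeR). Genes of mitochondrial transcription and RNA stability were positive for genotype in 11 of 15 (median 0.08), including Slirp at 0.44 (SE 0.24), Elac2 at 0.22 (SE 0.13) and Lrpprc at 0.35 (SE 0.21). Of 12 regulators of nuclear genes for mitochondria 7 were positive (median 0.14), with Pprc1, a coactivator of NRF1, at 0.98 (SE 0.37), Max at 0.26 (SE 0.13) and Myc at 0.95 (SE 0.53). None of these passed for genotype either.

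The 13 protein genes of the mitochondrial genome were positive for genotype in 7 (median log2 fold change 0.06). Among the 13, mt-Co3, mt-Nd3, mt-Co2, mt-Atp6 and mt-Nd4l were barely counted (0.404 to 4.52 CPM on average, against 9171 CPM for mt-Co1). The 3 with the smallest p were mt-Co1 at −0.20 (SE 0.17), mt-Nd2 at 0.24 (SE 0.24) and mt-Nd1 at 0.21 (SE 0.24). Cytosolic ribosomal protein genes, also 77 in number, were positive for genotype in 74 (median 0.20), with Rps2 at 0.56 (SE 0.18), Rplp1 at 0.44 (SE 0.21) and Rpl41 at 0.48 (SE 0.24), and for mouse group in 2 (median −0.32). By library, the cytosolic genes were at 0.80 on the log2 scale in Glut1Tg replicate 3, 0.31 and 0.27 in replicates 2 and 4 and −0.13 in replicate 1, a different order from that of the mitochondrial ribosomal genes. The difference between these lists was not tested.

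The annotation limits some of these values. In GENCODE M21 exons of another gene overlap those of 32 members, by over 50% in Mrpl53, Mrps34 and Mrps25, and how strand was treated in counting is not known from the labels. Processed pseudogenes with a stretch of at least 75 bases at 97% identity or more exist for 16 members, so reads could be assigned to either copy. Of the copies in the count table whose level was looked up, the highest was Mrpl23-ps1, identical to Mrpl23 over 540 bases. It had 3.55 to 8.47 CPM, against 24.7 CPM for Mrpl23 on average. The level of Gm6434, a copy of Mrpl41 in the count table, was not looked up. Stretches of that length and identity were also shared with genes other than pseudogenes, for Mrpl20 and Mrps26 among other members. Mrps26 and Dnajb14 were 99.5% identical over 191 bases.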

How the data were processed

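RNA of iTreg cells was sequenced in 9 libraries. Per the labels' protocols the libraries were stranded, poly(A)-selected and read in pairs. The submitters' processing notes name bcl2fastq, TopHat2, featureCounts, DESeq2 and the build mm10, with no versions. The authors deposited raw counts per gene and a table of log2 values, relative to the mean of WT replicates 1 and 3 as the values show, for 13700 genes with at least 5 counts in every library.

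Counts were filtered with filterByExpr by genotype (14817 genes kept, all 77 members among them), scaled by TMM and fitted with edgeR's quasi-likelihood method (4.0.16, R 4.3.3), with genotype and mouse group, or their interaction, as terms. Adjusted p-values are Benjamini-Hochberg over all genes tested, with a threshold of 0.05, and the SE of a log2 fold change is its size over the root of F. The fit was tested on simulated data. CPM values use TMM-scaled totals, and log2 CPM a prior count of 2. DESeq2 1.42.0, limma 3.58.1 (voom, and on the deposited log2 values), other filters and scalings, left-out libraries and a replicate block were the alternatives. No library was a copy of another, since the lowest chi-square per degree of freedom over 36 pairs was 20.6.

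Coordinates, exon lengths, overlaps and neighbours came from GENCODE M21 (GRCm38, the build of the files), promoters from RefSeq, and copies from a search of transcripts. Named genes were those with the smallest p for genotype (up to 6 a direction), mouse group (up to 4 a direction) and interaction (up to 2), the 4 highest and 4 lowest per kilobase, the 2 highest in each structural class and 6 fixed names; of the other lists, the 3 genes with the smallest genotype p. The members and lists were chosen with earlier results of these data known.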

Additional observations from a re-analysis of the deposited data

Results flagged for a closer look

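In each genotype, and for the genes named for mouse group also in each mouse group, the gap of the highest or lowest library to its neighbour was compared with the range of the group by Dixon's criterion. It was exceeded 11 times in 86 tests over correlated values. These included tests, by genotype, of the mean level of all members and of each subunit, none of which exceeded it. Chance exceeds it in about 1 in 20 groups of unselected values, which is no baseline here, since genes were named for their p. For genes named for mouse group, a gap of Glut1Tg replicate 1 to the other Glut1Tg libraries largely followed from that choice. Glut1Tg replicate 3 stood above the other Glut1Tg libraries in Mrpl2 (57.9 CPM, the others 40.7 to 42.1), Mrps23 (85.7 CPM, the others 58.1 to 59.6) and Mrps26 (79.1 CPM, the others 57.2 to 60.0), and above the other libraries of mouse group 1 in Mrpl51 (32.8 CPM, the others 13.9 to 15.9), Mrpl54 (66.8 CPM, the others 42.5 to 48.4) and Mrps6 (17.6 CPM, the others 10.02 to 10.8). Glut1Tg replicate 1, the only Glut1Tg library of mouse group 2, stood above the other Glut1Tg libraries in Mrpl49 (47.5 CPM, the others 17.9 to 22.3), Mrps27 (24.1 CPM, the others 9.17 to 10.2) and Mrps6 (74.3 CPM, the others 10.7 to 17.6), and below them in Mrpl44 (29.3 CPM, the others 38.8 to 40.7). WT replicate 2 stood above the other WT libraries in Mrps25 (25.6 CPM, the others 12.7 to 14.2).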

How the results depend on the processing

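In no alternative did a member pass the adjusted threshold for genotype or for the interaction. Over all genes the genotype count of 1 became 2 without a filter on low counts, 7 with DESeq2, 0 with limma on the deposited log2 values, with the replicate block, without both WT replicate 2 and Glut1Tg replicate 1 and within mouse group 1, and 9 without Glut1Tg replicates 1 and 3, a choice made after seeing the data, as was leaving out replicates 2 and 4. It was 1 to 2 when single libraries were left out. The 19 members at an unadjusted p under 0.05 (6% of all genes in either direction) became 10 with library totals alone (5.73%), 9 with the replicate block (3.83%), 11 without a mouse group term (3.52%), 2 without both WT replicate 2 and Glut1Tg replicate 1 (2.69%), 2 within mouse group 1 (1.94%), 1 without Glut1Tg replicates 1 and 3 (1.47%) and 41 without replicates 2 and 4 (18.3%), and 3 to 31 with single libraries left out (1.78% to 8.8%). The members' median log2 fold change was compared with a yardstick, the SD of their mean log2 level over the 5 WT libraries. It shifted by more than that SD only without Glut1Tg replicates 1 and 3, to 0.0857. The SD is not the error of the median, and the shift without replicates 2 and 4 came close to it. The log2 fold change of Slc2a1 stayed near 2.92 but did not pass with limma on the deposited values (2.85, adjusted p = 0.139), the replicate block (2.83, 0.254), WT replicate 2 and Glut1Tg replicate 1 left out (2.87, 0.132) or mouse group 1 alone (2.89, 0.516).

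For mouse group, 3576 genes and 14 members were called. These became 0 and 0 with the replicate block, 561 and 1 without both WT replicate 2 and Glut1Tg replicate 1, 790 and 2 in WT alone, 1633 and 7 without Glut1Tg replicates 1 and 3, 1509 and 5 without replicates 2 and 4, and 651 to 4575 genes and 1 to 24 members with single libraries left out. The members' median became 0.33 with the replicate block. For the interaction, DESeq2 called 2 genes and leaving out single libraries gave 0 to 140; without Glut1Tg replicate 1 it could not be fitted.

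For the replicate numbers that the genotypes share, the correlations of same-numbered deviations were −0.51, −0.59, 0.23 and −0.21 for numbers 1 to 4. Mouse group was not taken out of these deviations, and numbers 1, 2 and 4 join libraries of different mouse groups. The correlations therefore cannot decide whether the numbers pair the libraries. The replicate block left few degrees of freedom.

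The sign of the genotype fold change turned in 10 named members. Without a mouse group term the log2 fold changes were 0.0086 (Mrpl24), −0.034 (Mrpl47), −0.11 (Mrpl49) and 0.27 (Mrpl9). Without both WT replicate 2 and Glut1Tg replicate 1 Mrpl24 was at 0.18 and Mrpl9 at 0.19, and within mouse group 1 at 0.20 and 0.21. Without Glut1Tg replicates 1 and 3 the values were 0.12 (Mrpl24), −0.28 (Mrpl33), −0.090 (Mrpl47), −0.043 (Mrpl49), −0.13 (Mrpl51), 0.22 (Mrpl9), −0.0014 (Mrps21), −0.089 (Mrps25) and −0.0091 (Mrps30), and without replicates 2 and 4 Mrpl53 was at −0.076. With single libraries left out the ranges were −0.17 to 0.18 (Mrpl24), −0.10 to 0.20 (Mrpl33), −0.24 to 0.51 (Mrpl53) and −0.16 to 0.19 (Mrpl9). The cause of these changes was not tested. Counts of 24 and more per member set the depth, and Mrpl53 was the least counted.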
